A study of Homo sapiens with 12 samples.

Results

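The proteasome genes described here were the protein-coding genes of the deposited expression table whose symbol, matched by Ensembl gene ID, begins with PSMA, PSMB, PSMC, PSMD, PSME, PSMF or PSMG followed by a digit. The rule found 50 of 19876 protein-coding genes. A further 51 entries with a PSM symbol are not protein-coding and were left out. Of the 50, 48 encode proteasome subunits, activators, an inhibitor or assembly factors, and 2 (PSMC3IP and PSME3IP1) match by their letters only, being partners of a recombinase and of an activator. A mean of at least 1 TPM (a transcript abundance per library, corrected for length) over the 12 libraries, the minimum for testing, was reached by 49; the other was PSMB11, the thymus-specific catalytic subunit, listed at 0 TPM in all 12 libraries.

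The study measured gene expression by RNA sequencing in 2 human hepatoma cell lines, Huh-7 and MHCC-97H, after transfection with a small interfering RNA against CENPU, a centromere protein gene (si-CENPU), or a control RNA (si-NC). Below, controls are si-NC libraries and knockdown libraries are si-CENPU libraries. Each of the 4 groups (Huh-7 si-NC, Huh-7 si-CENPU, MHCC-97H si-NC and MHCC-97H si-CENPU) has 3 libraries. Both lines were grown in the same serum-supplemented medium and carry the genotype label WT, and every control received an siRNA too, so no untransfected cells are part of the comparison. Each line is a single established culture, so a difference between them is a difference between 2 lines; nothing in the labels says that the 3 libraries of a group came from separate cultures, and p-values then measure only the spread between these libraries, which may be technical.

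The proteasome is the protease that degrades proteins tagged with ubiquitin. Its core particle is a barrel of alpha and beta rings in which the subunits encoded by PSMB6, PSMB7 and PSMB5 cut the chain, and interferon signalling can replace these with the products of PSMB9, PSMB10 and PSMB8 to form the immunoproteasome, which produces peptides for presentation on HLA class I molecules. A cap made of a base, with an ATPase ring that unfolds substrates, and a lid, with a deubiquitinase, feeds the barrel, and dedicated chaperones assemble each part.

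CENPU itself was low. The Huh-7 controls held 0.56, 0.84 and 0.53 TPM, and the Huh-7 knockdown libraries 0.17, 0.11 and 0.45 TPM. In MHCC-97H the values were 1.17, 0.83 and 0.89 TPM in controls against 0.22, 0.45 and 0.24 TPM after knockdown. The groups did not overlap in either line, and the si-CENPU means were 37.8% and 31.5% of the si-NC means, but with a mean of 0.538 TPM over all libraries the gene was below the minimum for testing. TPM columns summed to between 998416 and 999065, keep no read depth, and give no counting interval. All 10 hepatocyte markers examined were present at a mean of at least 1 TPM in Huh-7, with a summed level of 7277 to 8271 TPM. In MHCC-97H none of the 10 was, and their summed level was 0.68 to 1.93 TPM. Summed levels of the 7 leukocyte markers found in the table were 52.0 to 75.6 TPM in Huh-7, mostly CD68 and LYZ, and 17.7 to 20.6 TPM in MHCC-97H, the line with more immunoproteasome RNA; 6 fibroblast markers summed to at most 7.36 TPM and 5 endothelial markers to at most 0.68 TPM. The part of other cell types in the results was not tested. Replicate 1 of Huh-7 si-NC lay furthest from its line (mean correlation with the other libraries of the line 0.9646, against 0.9745 to 0.9777 for those), and the proteasome genes were low in it, with a median deviation of -0.35 log2 units from their line means; differences between the lines without it are given below for the genes described most closely.

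RNA levels of the subunits were very unequal, although each of the 14 standard core subunits is present in equal number in the finished particle. In each library a few beta subunits held most of the core RNA. PSMB3, PSMB4, PSMB5 and PSMB6 together made up 84.7% to 91.6% of the summed TPM of the 14 core genes (PSMA1 to PSMA7 and PSMB1 to PSMB7) in the 6 Huh-7 libraries. The share in the 6 MHCC-97H libraries was 65.7% to 76.5%. The most abundant core gene was 103-fold to 239-fold above the least abundant in Huh-7 and 33.7-fold to 58.9-fold above it in MHCC-97H. TPM is corrected for transcript length, but over the 49 tested genes the level still went down as transcript length went up. The Spearman correlation was -0.39 with si-NC and -0.40 with si-CENPU in Huh-7, and -0.44 and -0.43 in MHCC-97H. Over 10970 tested genes it was -0.21, -0.22, -0.12 and -0.12. The part of length in these ratios was not tested.

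The alpha ring forms the gate of the barrel, and its 8 genes summed to a median of 268 TPM in Huh-7 and 414 TPM in MHCC-97H, far below the 2384 and 1476 TPM of the 4 structural beta genes. Among alpha genes PSMA7 was the most abundant, with a mean of 107 ± 40.3 TPM (SD, n = 3) in Huh-7 si-NC and 208 ± 59.8 TPM in the MHCC-97H controls. PSMA2 was the lowest in Huh-7 after the testis-enriched variant PSMA8, at 11.99 ± 4.06 TPM. The cap lid was more uneven than the core, with a most abundant gene 215-fold to 849-fold above the least abundant in Huh-7 and 69.9-fold to 135-fold above it in MHCC-97H. Of the summed TPM of the 8 lid genes found by the symbol rule, PSMD8 alone held 85.3% to 89.5% in Huh-7 and 68.0% to 75.5% in MHCC-97H. PSMD12, another lid subunit, was at 0.86 to 3.0 TPM in Huh-7 and 2.89 to 5.32 TPM in MHCC-97H. The sum leaves out SEM1, a lid subunit with another symbol, at 29.1 to 96.0 TPM in Huh-7 and 57.4 to 106 TPM in MHCC-97H. Among the 6 ATPases of the base, the most abundant was 13.4-fold to 29.3-fold above the least abundant in Huh-7.

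**Figure D1:**
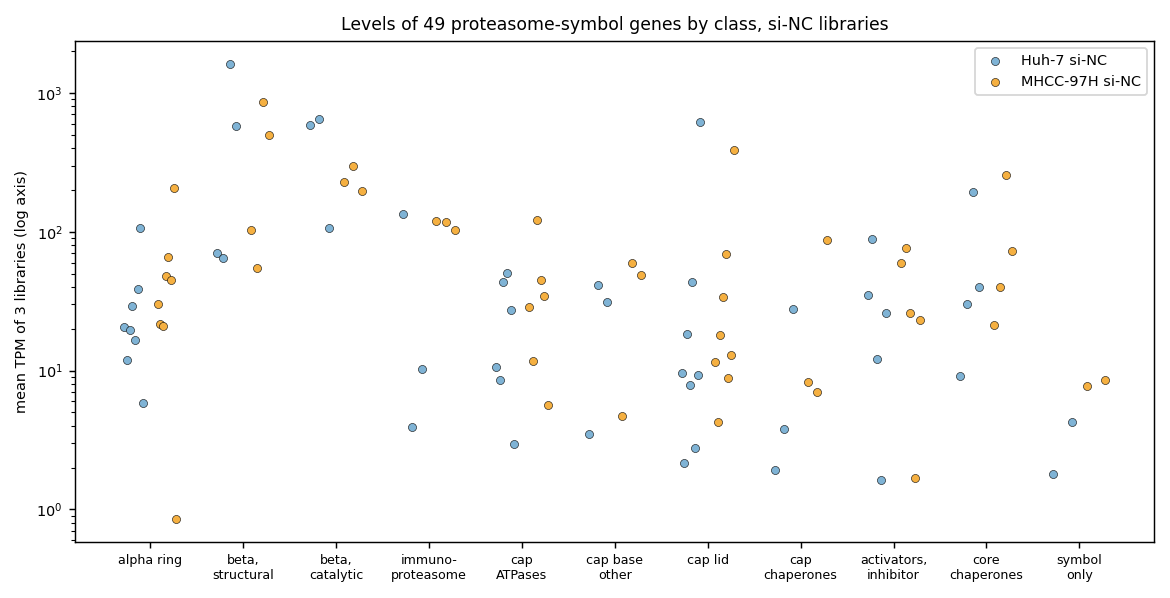
Mean TPM of 3 libraries (vertical log axis) for each of 49 genes in Huh-7 si-NC (blue) and MHCC-97H si-NC (orange), grouped by role along the horizontal axis; PSMB11, at 0, is not drawn. PSMB3, PSMB4, PSMB5 and PSMB6 and the lid gene PSMD8 stand above the other core and cap genes in both lines, and PSMA8 is the lowest point in MHCC-97H. In MHCC-97H the PSMB5 mean (227 TPM) is only slightly above those of PSMA7 (208 TPM) and PSMB7 (196 TPM).

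Level went with base composition. Over the 49 tested genes the Spearman correlation of mean TPM with the GC content of the annotated transcripts was 0.60 in the Huh-7 controls and 0.59 after knockdown, and 0.70 in the MHCC-97H controls and 0.71 after knockdown. Over 10970 tested genes with a GC value it was 0.33, 0.33, 0.25 and 0.27. These are descriptions across genes that share libraries, and genes are not independent replicates. The 25 proteasome genes with GC of at least 50% had a median of 41.6 TPM in the Huh-7 controls, and the 24 below 50% a median of 9.17 TPM; the MHCC-97H si-NC medians were 76.4 and 16.9 TPM. Libraries also differed from one another along GC. The correlation of a gene's deviation from its line mean with GC, over the same 49 genes, ran from -0.69 in Huh-7 si-NC replicate 2 to 0.61 in Huh-7 si-CENPU replicate 2, and its part in the levels was not tested.

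**Figure D2:**
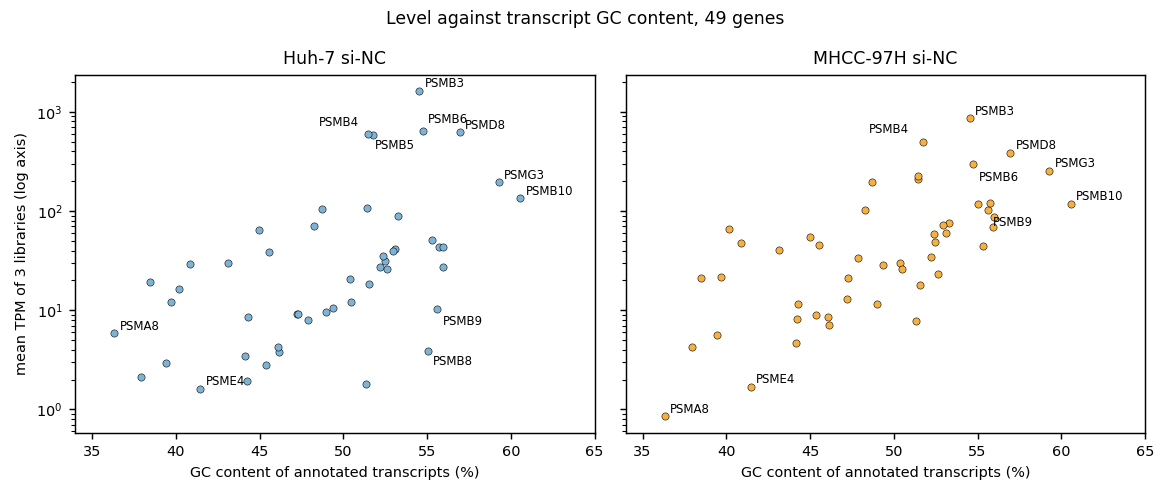
Mean TPM of 3 libraries (vertical log axis) against GC content of the annotated transcripts in percent, for 49 genes in Huh-7 si-NC (left) and MHCC-97H si-NC (right). The correlation is 0.60 in the left panel and 0.70 in the right; PSMB8 and PSMB9 lie under most other GC-rich genes in Huh-7, and PSMB9 lies among them in MHCC-97H.

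The first comparison asks how proteasome RNA differed between the lines. PSMB8 and PSMB9 were far higher in MHCC-97H than in Huh-7, while 2 standard catalytic genes, PSMB5 and PSMB6, the structural PSMB3 and the lid gene PSMD8 were lower. PSMB10 changed little. The tests used limma on log2(TPM + 1), a scale that understates the change of low genes, with Benjamini-Hochberg adjustment over all 11088 tested genes and a threshold of 0.05. In these bulk samples fewer cells with a transcript and less RNA per cell cannot be told apart.

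PSMB8 (chr6:32840717-32844703, minus strand, GENCODE annotation of GRCh38) encodes beta5i, the immunoproteasome replacement of PSMB5. In Huh-7 it was at 3.51, 3.56 and 4.68 TPM in controls and at 3.61, 5.42 and 4.35 TPM after knockdown. In MHCC-97H it was at 121, 129 and 106 TPM in controls and at 132, 120.4 and 107 TPM after knockdown. Every MHCC-97H library was above every Huh-7 library. The mean was 30.3-fold higher in MHCC-97H with si-NC (log2 difference 4.61, SE 0.14, limma adjusted p = 1.21e-10) and 26.9-fold higher with si-CENPU (4.48, adjusted p = 1.56e-10).

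PSMB9 (chr6:32844136-32859585, plus strand) encodes beta1i, the replacement of PSMB6. Its Huh-7 values were 10.8, 9.49 and 10.4 TPM in controls and 10.1, 10.1 and 11.3 TPM after knockdown. The MHCC-97H values were 99.1, 104 and 104 TPM in controls and 101, 105 and 97.2 TPM after knockdown. No library of one line reached the range of the other, and the spread within each line was small. The si-NC difference was 9.99-fold (log2 3.20, SE 0.08, limma adjusted p = 1.89e-11), and the si-CENPU difference was 9.61-fold (log2 3.15, adjusted p = 2.21e-11). PSMB8 and PSMB9 are neighbours whose annotated ends overlap on opposite strands, with PSMB8-AS1 over both and TAP1 overlapping PSMB9. Since the strand setting of the counting is not given in the sources used here, reads from the shared stretches could fall to either gene.

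PSMB10 (chr16:67934502-67937087, minus strand) encodes beta2i, the replacement of PSMB7, and did not follow its partners. It overlaps AC040162.1, a protein-coding entry on the same strand, so its reads may be shared. Huh-7 libraries held 150, 128 and 125 TPM in controls and 131, 134 and 128 TPM after knockdown. MHCC-97H libraries held 111, 121 and 125 TPM in controls and 116, 110 and 104 TPM after knockdown, so the si-NC groups overlapped. The log2 difference was -0.17 with si-NC (SE 0.09, limma adjusted p = 0.092) and -0.26 with si-CENPU (adjusted p = 0.02), and in the si-NC libraries it passed the threshold, on the same side of 0, under 4 other scalings.

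The standard catalytic genes differed the other way at 2 of 3 positions. PSMB5, the chymotrypsin-like beta5, was at 590.2, 593 and 594 TPM in the Huh-7 controls and at 611, 844 and 739 TPM in the Huh-7 knockdown. In MHCC-97H it was at 219, 239 and 223 TPM in controls and at 235, 201 and 208 TPM after knockdown. All 6 MHCC-97H libraries lay below all 6 Huh-7 libraries, with a mean 2.61-fold lower with si-NC (log2 -1.38, SE 0.11, limma adjusted p = 3.71e-07). PSMB6, the caspase-like beta1, was at 652, 619 and 666 TPM in the Huh-7 controls, at 624, 859 and 779 TPM in the Huh-7 knockdown, at 298, 307 and 282 TPM in the MHCC-97H controls and at 312, 286 and 280.3 TPM in the MHCC-97H knockdown. Again the lines did not overlap (2.18-fold lower with si-NC, log2 -1.12, SE 0.10, limma adjusted p = 1.79e-06).

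PSMB7, the trypsin-like beta2, had values of 73.8, 128 and 116 TPM in the Huh-7 controls and 103, 146 and 151 TPM in the Huh-7 knockdown. The MHCC-97H values were 230.1, 214 and 145 TPM in controls and 184, 184 and 154 TPM after knockdown. It was higher in MHCC-97H with si-NC (log2 0.90, SE 0.23, limma adjusted p = 0.00452) and did not pass with si-CENPU (0.40, adjusted p = 0.147), and the si-NC difference kept its sign in all 25 alternatives, although it was 0.33 (adjusted p = 0.0602) after GC correction. Over the scalings the lowest value, in the si-CENPU libraries, was -0.03.

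Without replicate 1 of Huh-7 si-NC the si-NC differences were 4.55 for PSMB8, 3.24 for PSMB9, -1.38 for PSMB5, -1.12 for PSMB6, 0.66 for PSMB7 (limma adjusted p = 0.0177) and -0.09 for PSMB10 (adjusted p = 0.326). None of these 6 genes changed its call or direction.

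Shares of a pair within a library are not altered by multiplying that library by a factor. PSMB8 made up 0.585% to 0.782% of PSMB8 plus PSMB5 in Huh-7 and 32.3% to 37.5% in MHCC-97H. PSMB9 made up 1.16% to 1.63% of PSMB9 plus PSMB6 in Huh-7 and 24.6% to 26.9% in MHCC-97H. At the beta2 position the share of PSMB10 in PSMB10 plus PSMB7 was 46.0% to 67.0% in Huh-7 and 32.5% to 46.4% in MHCC-97H. The first pair of ranges did not overlap between lines, nor did the second, and the third overlapped slightly. These are shares of RNA, and no protein was measured.

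**Figure D3:**
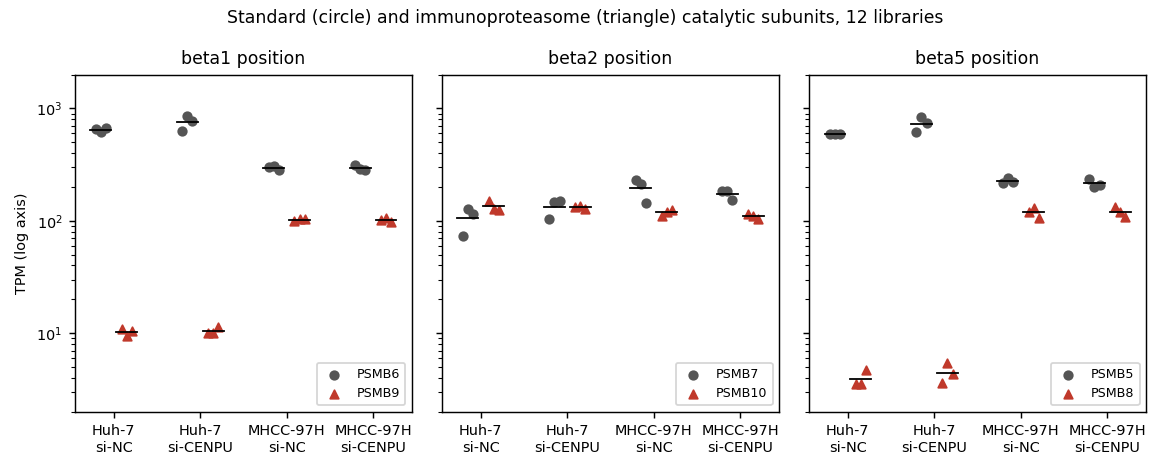
TPM (vertical log axis) of the standard (grey circles) and immunoproteasome (red triangles) catalytic gene at each active position, 1 point per library and a black line at the mean of 3, in the 4 groups. PSMB9 rises from about 10.3 TPM in the Huh-7 controls to 102 TPM in the MHCC-97H controls and PSMB8 from 3.92 to 118.5 TPM, while PSMB10 stays near its partner PSMB7 in every group.

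Promoter sequences of the 3 immunoproteasome genes are shown because their line differences were of unlike size, with PSMB8 and PSMB9 far higher in MHCC-97H and PSMB10 slightly lower. They are RefSeq sequences on GRCh38.p14, from 250 bases before the start site to 30 bases from it on, written 5′ to 3′ along the gene; they were available for 44 of the 50 genes, as 55 promoters, and not for PSMA7, PSMB1, PSMB6, PSMB7, PSMD4 and PSMG3. Capitals mark matches, on either strand, to 4 letter patterns: TTTC, any 2 bases and TTTC again (interferon-stimulated response type), TTCNNNGAA (interferon-gamma-activated site type), TGACNNNGC (antioxidant response type) and CCAAT. No marked matches overlap one another in these 3 sequences. They lie at chr6:32844018-32844297 on the minus strand (PSMB8), chr6:32853942-32854221 on the plus strand (PSMB9) and chr16:67936821-67937100 on the minus strand (PSMB10).
PSMB8: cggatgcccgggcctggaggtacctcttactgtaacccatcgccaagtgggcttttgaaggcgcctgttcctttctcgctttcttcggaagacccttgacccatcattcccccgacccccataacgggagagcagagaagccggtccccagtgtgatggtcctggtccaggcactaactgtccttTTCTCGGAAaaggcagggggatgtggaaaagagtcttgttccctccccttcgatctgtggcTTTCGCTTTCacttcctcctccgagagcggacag
PSMB9: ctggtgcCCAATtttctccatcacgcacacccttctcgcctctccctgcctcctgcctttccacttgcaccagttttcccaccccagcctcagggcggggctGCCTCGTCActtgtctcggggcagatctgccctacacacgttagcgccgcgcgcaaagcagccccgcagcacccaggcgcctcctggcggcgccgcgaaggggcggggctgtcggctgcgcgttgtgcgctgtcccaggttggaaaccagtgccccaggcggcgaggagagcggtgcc
PSMB10: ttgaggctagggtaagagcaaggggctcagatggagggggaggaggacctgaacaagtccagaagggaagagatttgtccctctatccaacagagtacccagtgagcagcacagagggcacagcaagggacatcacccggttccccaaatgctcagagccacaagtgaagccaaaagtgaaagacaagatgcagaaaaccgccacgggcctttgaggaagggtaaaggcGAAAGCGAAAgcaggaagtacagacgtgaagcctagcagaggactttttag

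PSMB8 carried the interferon-stimulated response type, beginning 4 bases before its start site, and an interferon-gamma-activated site type 65 bases before it. A second listed PSMB8 start site had a match to none of the 4 patterns. PSMB10 carried the interferon-stimulated response type 21 bases before its start. PSMB9 had only the antioxidant type, 148 bases before its start, and CCAAT, 243 before. Across all 35116 RefSeq promoters of the same window, 3.39% held the first pattern, 7.30% the second, 12.4% the third and 33.6% CCAAT. Of the 55 promoters of genes found by the symbol rule, 7 held the first (PSMA4, PSMB4, PSMB8, PSMB10, PSME1, PSME2 and PSMG4), 7 the second, 13 the third and 24 CCAAT. The 24 include promoters of PSMC3IP and PSME3IP1, which match the rule by letters only. A match describes letters and is no measurement of binding.

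Over the 49 tested genes of the symbol rule the line difference was no more frequent than among other genes. The 49 include PSMC3IP and PSME3IP1, which match by letters only and were called higher in both library sets. With si-NC, 32 of 49 genes passed (27 higher and 5 lower in MHCC-97H, 65.3%), against 73% of all 11088 tested genes (50.1% higher and 22.9% lower). With si-CENPU, in the 6 libraries the first contrast did not use, 33 of 49 passed (23 higher and 10 lower, 67.3%), against 70.1% of all (46.2% higher and 23.9% lower). The same direction was called in both library sets for 27 of 49 (22 higher and 5 lower, against 65.3% of all tested genes), 5 were called with si-NC only, 6 with si-CENPU only, and 0 in opposite directions. Without Huh-7 si-NC replicate 1, 25 of 49 passed with si-NC (19 higher and 6 lower), against 7648 of all 11088 (5006 higher and 2642 lower). With si-CENPU, 15 of 49 were called higher without Huh-7 si-CENPU replicate 2 (4512 of all 11088) and 15 without MHCC-97H si-CENPU replicate 2 (4462 of all 11088).

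The balance of higher and lower calls depended on scaling. The median difference of all tested genes was 0.49 with si-NC and 0.40 with si-CENPU on the deposited TPM scale, and the median of the 49 was 0.57 and 0.40. Under trimmed-mean scaling the median of all genes was 0.08 and 0.07, and 16 proteasome genes were called higher and 12 lower with si-NC, 15 and 14 with si-CENPU, while 4021 and 3572 of all 10852 genes tested in that fit were called with si-NC, and 3857 and 3561 with si-CENPU. Quantile normalization gave 19 and 12 with si-NC (4340 and 3522 of all 11088), and a GC correction 16 and 17 (3955 and 3804 of all 11088). The sign differed between the 5 scalings or the 2 library sets for 15 of the 49 genes. Called in 1 direction in both sets under all 5 were 12 higher genes (PSMB8, PSMB9, PSMA5, PSMC3, PSMD6, PSMD14, PSMD9, PSMD10, PSME3, PSMG1, PSMG4 and PSMC3IP) and 5 lower genes (PSMB3, PSMB5, PSMB6, PSMD8 and PSMA8). Among the 12, PSMC3IP matches the rule by its letters only. How many of all tested genes keep 1 direction in both sets under all 5 scalings was not computed. These counts therefore do not set proteasome genes apart from other genes.

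**Figure D4:**
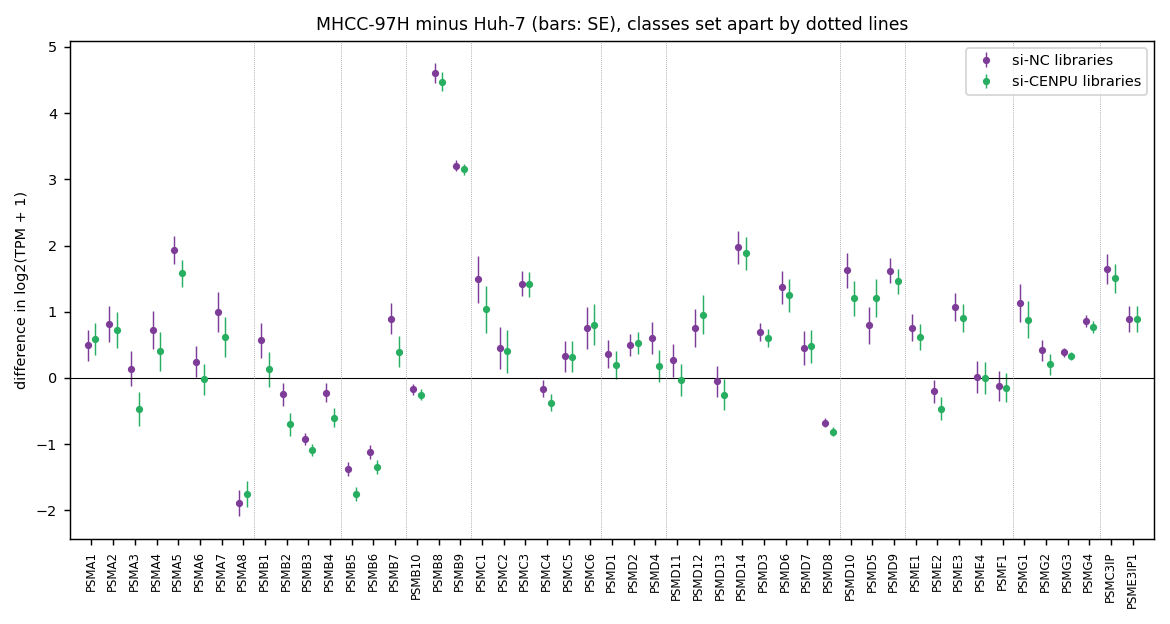
Difference in log2(TPM + 1), MHCC-97H minus Huh-7 (vertical axis), with SE bars, for 49 genes ordered by class (horizontal axis), in si-NC (purple) and si-CENPU (green) libraries. PSMB8 at 4.61 and 4.48 and PSMB9 at 3.20 and 3.15 stand above the other genes, and PSMA8, PSMB5 and PSMB6 lie below -1 in both sets.

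In the alpha ring 4 of 8 genes were called higher and 1 lower with si-NC, close to the 50.1% and 22.9% of all tested genes. Without Huh-7 si-NC replicate 1, 2 were called higher and 1 lower, against 5006 and 2642 of all 11088 tested genes. PSMA5 was at 14.9, 21.0 and 13.5 TPM in the Huh-7 controls, at 16.9, 15.6 and 18.5 TPM in the Huh-7 knockdown, at 75.0, 75.8 and 47.7 TPM in the MHCC-97H controls and at 51.9, 63.3 and 44.3 TPM in the MHCC-97H knockdown. The MHCC-97H libraries were all above the Huh-7 libraries, by 4.01-fold with si-NC (log2 1.93, SE 0.21, limma adjusted p = 6.47e-06). PSMA8, which replaces PSMA7 in male germ cells, was low in both lines: 4.91, 5.20 and 7.51 TPM in the Huh-7 controls, 6.41, 4.91 and 6.09 TPM in the Huh-7 knockdown, 1.05, 1.07 and 0.44 TPM in the MHCC-97H controls and 1.12, 1.21 and 0.73 TPM in the MHCC-97H knockdown. It was lower in every MHCC-97H library (log2 -1.89 with si-NC, SE 0.19, limma adjusted p = 4.6e-06). The differences were 1.88 for PSMA5 and -1.99 for PSMA8 without Huh-7 si-NC replicate 1, both still called.

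Of the 4 structural beta genes 0 were called higher and 1 lower with si-NC by limma, against 50.1% and 22.9% of all tested genes. With si-NC 1 of the 4 passed at an unadjusted p below 0.05 (75.3% of all tested genes). With si-CENPU 0 were called higher and 3 lower, against 46.2% and 23.9% of all tested genes. The gene called in both was PSMB3, the most abundant proteasome transcript, at 1774, 1555 and 1563 TPM in the Huh-7 controls and 793, 883 and 896 TPM in the MHCC-97H controls. With si-CENPU it was at 1629, 1908 and 1727 TPM in Huh-7 and 898, 745 and 836 TPM in MHCC-97H. The lines did not overlap (1.90-fold lower in MHCC-97H with si-NC, log2 -0.93, or -0.86 without Huh-7 si-NC replicate 1, SE 0.09, limma adjusted p = 3.37e-06). PSMB4 (log2 -0.60, adjusted p = 0.00324) and PSMB2 (-0.70, adjusted p = 0.0041) were the others lower with si-CENPU, where the Huh-7 libraries were higher; with si-NC they were at -0.22 (adjusted p = 0.188) and -0.25 (adjusted p = 0.225).

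In the cap, 3 of 6 base ATPases, 2 of 3 other base genes and 4 of 8 lid genes were called higher with si-NC, and 1 lid gene lower, against 50.1% and 22.9% of all tested genes. When Huh-7 si-NC replicate 1 was left out, 2 of 6 ATPases and 3 of 8 lid genes were called higher and 1 lid gene lower. Of all 11088 tested genes 5006 were then called higher and 2642 lower. The base genes PSMD2 (0.40, limma adjusted p = 0.0753) and PSMD4 (0.47, adjusted p = 0.138) lost their calls. The lower lid gene was PSMD8, at 589.8, 644 and 628 TPM in the Huh-7 controls and 674, 730.3 and 763 TPM in the Huh-7 knockdown. It was at 372, 402 and 389.7 TPM in the MHCC-97H controls and 423, 409 and 396 TPM in the MHCC-97H knockdown. Its ranges did not overlap between lines (log2 -0.68 with si-NC, SE 0.07, limma adjusted p = 3.45e-06). PSMD14, the lid deubiquitinase that removes ubiquitin from incoming substrates, moved the other way, from a mean of 7.93 ± 2.63 TPM in the Huh-7 controls to 33.7 ± 8.58 TPM in the MHCC-97H controls (n = 3 each; log2 1.97, SE 0.25, limma adjusted p = 2.42e-05). The ATPase PSMC3 rose from 43.7 ± 4.95 to 121 ± 28.3 TPM (log2 1.43, limma adjusted p = 4.8e-05). PSMC1 was called too (log2 1.49, adjusted p = 0.00289), but its 13 annotated pseudogenes reached a summed 14.6 TPM in a library, so its reads could be split and its level is uncertain. The differences were -0.71 for PSMD8, 1.72 for PSMD14, 1.38 for PSMC3 and 0.997 for PSMC1 without Huh-7 si-NC replicate 1, each still called.

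The assembly chaperones found by the symbol rule, 4 of the core and 3 of the cap base, were called higher in MHCC-97H with si-NC. This was on the deposited scale, where 50.1% of all tested genes were called higher. They were PSMG1, PSMG2, PSMG3 and PSMG4, which build the core, and PSMD5, PSMD9 and PSMD10, which build the cap base. Among chaperones with other symbols, POMP of the core was at 0.86 (limma adjusted p = 0.0145). PAAF1 of the cap base was at 0.58 (adjusted p = 0.0543) and not called. When Huh-7 si-NC replicate 1 was left out, POMP was at 0.60 (adjusted p = 0.0623) and PAAF1 at 0.39 (adjusted p = 0.193), neither called. Without Huh-7 si-NC replicate 1 the calls of PSMG2 (0.25, adjusted p = 0.139) and PSMD5 (0.49, adjusted p = 0.105) were lost. PSMG2 was not called with si-CENPU (0.21, adjusted p = 0.262) and reached -0.40 under another scaling, and PSMD5 fell to 0.13. PSMG4 was at 43.1, 39.99 and 36.5 TPM in the Huh-7 controls and 42.8, 41.6 and 39.8 TPM in the Huh-7 knockdown. It was at 77.3, 75.1 and 66.8 TPM in the MHCC-97H controls and 74.0, 67.6 and 71.5 TPM in the MHCC-97H knockdown. The lines did not overlap (1.83-fold higher with si-NC, log2 0.86, SE 0.09, limma adjusted p = 4.42e-06). PSMD9 went from a mean of 27.6 ± 4.46 to 86.9 ± 12.8 TPM in controls (log2 1.62, SE 0.19, limma adjusted p = 1.12e-05). It overlaps the protein-coding entries AC069503.2 and WDR66 on the same strand, and PSMG4 overlaps TUBB2B and SLC22A23 on the opposite strand. Reads of PSMD9 and PSMG4 may therefore be shared. PSMG3, the most abundant chaperone, was at 197, 189 and 197 TPM in the Huh-7 controls and 245, 258 and 261 TPM in the MHCC-97H controls, and with si-CENPU at 190.1, 195 and 189.5 TPM against 253, 226 and 245 TPM. The 6 libraries of each line were separate, but the log2 difference of 0.39 (SE 0.06, limma adjusted p = 0.00023) was smaller than the median of all tested genes and became -0.10 under trimmed-mean scaling (adjusted p = 0.555). PSMG4 was at 0.91, PSMD9 at 1.57 and PSMG3 at 0.40 without Huh-7 si-NC replicate 1, and these 3 were still called.

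The interferon-inducible PA28 activator pairs PSME1 and PSME2, which together open the barrel in a ring. PSME1 was at 24.7, 38.3 and 42.1 TPM in the Huh-7 controls, 35.4, 31.9 and 38.3 TPM in the Huh-7 knockdown, 59.0, 68.5 and 49.7 TPM in the MHCC-97H controls and 56.5, 63.5 and 45.4 TPM in the MHCC-97H knockdown. PSME2 was at 66.7, 96.4 and 103 TPM in the Huh-7 controls, 89.1, 94.4 and 101 TPM in the Huh-7 knockdown, 78.1, 88.4 and 62.6 TPM in the MHCC-97H controls and 71.7, 73.8 and 60.5 TPM in the MHCC-97H knockdown. PSME1 was higher in each MHCC-97H library than in each Huh-7 library, whereas the PSME2 ranges overlapped. PSME1 differed by 0.76 with si-NC (SE 0.20, limma adjusted p = 0.00464; 0.28, adjusted p = 0.0716, under trimmed-mean scaling) and PSME2 by -0.20 (SE 0.17, adjusted p = 0.293). Without replicate 1 of Huh-7 si-NC they were at 0.53 (adjusted p = 0.014) and -0.40 (adjusted p = 0.0294), so that PSME2 was then called lower. PSME2 was also called lower with si-CENPU (-0.47, adjusted p = 0.0285) and, with si-NC, under trimmed-mean scaling (-0.69), quantile normalization (-0.48) and GC correction (-0.62). The ratio of PSME1 to PSME2 was 0.338 to 0.407 in Huh-7 and 0.751 to 0.859 in MHCC-97H. The nuclear activator PSME3 was higher (log2 1.07, adjusted p = 0.000716), the activator PSME4 was at 0.02 (adjusted p = 0.958) and the inhibitor PSMF1 at -0.12 (adjusted p = 0.634).

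Summed over the 48 proteasome genes, RNA was 0.536% to 0.670% of all TPM in Huh-7 and 0.407% to 0.486% in MHCC-97H, with no overlap. The sum followed the few abundant genes that were lower in MHCC-97H, while more single genes were called higher than lower.

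Genes that work with the immunoproteasome in antigen presentation also differed between the lines. Of the 14 listed, 12 were tested and 9 were higher and 0 lower in MHCC-97H, by limma, in the si-NC libraries (9 at an unadjusted p below 0.05), against 50.1% of all tested genes higher and 22.9% lower; the median difference was 2.33 against 0.49 for all tested genes. TAP1, a peptide transporter subunit next to PSMB9, was at 0.94, 1.16 and 1.13 TPM in the Huh-7 controls and 32.9, 37.2 and 32.7 TPM in the MHCC-97H controls (log2 4.08, SE 0.13, limma adjusted p = 1.29e-10). NLRC5, a transactivator of HLA class I genes, had a mean of 0.363 TPM in the Huh-7 controls and 13.6 TPM in the MHCC-97H controls (log2 3.43, adjusted p = 1.42e-08). B2M, the HLA class I light chain, was 7.02-fold higher (log2 2.88, adjusted p = 8.23e-06). HLA-B and HLA-C were higher by 8.40 and 5.03 log2 units, but they are near copies that differ between people, so their reads may be split or lost and the sizes are uncertain. IRF1, an interferon response factor, was at 0.81 (adjusted p = 0.105), which did not pass the threshold. Leaving out Huh-7 si-NC replicate 1 gave TAP1 at 4.04, NLRC5 at 3.26 and B2M at 2.48. In that fit 9 of the 12 were called higher, against 5006 of all 11088 tested genes.

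Other pathway lists were mixed in direction. Of 12 proteasome partners with other symbols, 5 were called higher and 1 lower with si-NC; the lower one was ADRM1, a ubiquitin receptor of the cap (log2 -0.53, limma adjusted p = 6.1e-05), and the deubiquitinase UCHL5 was among the higher (1.5, adjusted p = 8.6e-05), as was the scaffold ECPAS (1.25, adjusted p = 0.00122). Of 7 tested regulators of proteasome transcription 3 were called higher (STAT3, NFYB and NFYC) and 0 lower by limma, with 3 at an unadjusted p below 0.05, while NFE2L1, the main activator of proteasome genes, was at -0.20 (SE 0.23, adjusted p = 0.454). Of 13 tested ubiquitin, E1 and shuttle genes, 8 were called higher and 3 lower. UBA1, the main ubiquitin-activating enzyme, was at a mean of 14.4 TPM in Huh-7 and 81.6 TPM in the MHCC-97H controls (log2 2.43, SE 0.16, limma adjusted p = 7.38e-08), and the shuttle factor UBQLN1 was at 0.250 and 11.3 TPM (log2 3.27, adjusted p = 1.01e-06). These counts stand beside the same 50.1% and 22.9% of all tested genes. Without Huh-7 si-NC replicate 1 they were 3 higher and 1 lower for the partners, 3 and 1 for the regulators, and 7 and 3 for the ubiquitin and shuttle genes. Among all 11088 tested genes 5006 were called higher and 2642 lower without it.

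The second comparison asks what si-CENPU did to proteasome RNA. No proteasome gene was called. In Huh-7, 0 of 49 passed the limma test (0.00902% of all tested genes did, 1 of 11088), and 2 of 49 had an unadjusted p below 0.05, against 4.57% of all tested genes. In MHCC-97H 0 of 49 passed (0.00902% of all) and 0 of 49 had an unadjusted p below 0.05, against 3.42%. For the difference of the responses between the lines it was 0 of 49 (0.00902% of all) and 1 of 49 at an unadjusted p below 0.05, against 3.45%. The lowest adjusted p among the 49 was 0.87 for Huh-7. It was 1.0 for MHCC-97H and 0.999 when the responses were contrasted. The count of 0 was also found in every alternative run.

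The intervals bound the size of change these libraries could show. In Huh-7 the unadjusted 95% interval lay inside 1 log2 unit either way for 48 of 49 genes, the exception being PSMC1 (upper bound 1.17). In MHCC-97H it did so for 49 of 49, with bounds from -0.89 to 0.75. For the difference of responses it did so for 33 of 49. A missed threshold does not show that a gene was unchanged.

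PSMD8 and PSMB5 were the Huh-7 genes at an unadjusted p below 0.05. The PSMD8 libraries given above were separate, with all 3 si-CENPU values over the si-NC values (log2 0.22, SE 0.07, interval 0.07 to 0.37, unadjusted p = 0.00809, limma adjusted p = 0.87). PSMB5 was also separate, the si-NC libraries lying within 590.2 to 594 TPM and the si-CENPU libraries from 611 to 844 TPM (log2 0.29, SE 0.11, interval 0.06 to 0.53, unadjusted p = 0.0201, limma adjusted p = 1.0). In MHCC-97H the PSMB5 change was -0.08, and the difference of the responses was -0.37 (SE 0.15, unadjusted p = 0.0312, limma adjusted p = 0.999). PSMB2 was next, at 51.4, 76.2 and 67.6 TPM in the Huh-7 controls and 66.3, 96.7 and 92.0 TPM in the Huh-7 knockdown, with overlapping groups (log2 0.38, SE 0.18, limma adjusted p = 1.0), followed by PSMB6 (log2 0.21, adjusted p = 1.0). Without replicate 1 of Huh-7 si-NC these differences were 0.18 for PSMD8, 0.29 for PSMB5, 0.22 for PSMB2 and 0.22 for PSMB6, each with a limma adjusted p of 0.904. Without Huh-7 si-CENPU replicate 2 PSMB5 was at 0.18 and PSMB6 at 0.11, and without si-CENPU replicate 1 PSMB6 was at 0.34. Groups without overlap were found for 2 of 49 genes in Huh-7, against 7.65% of all tested genes.

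PSMA5 came first by p in MHCC-97H (log2 -0.29, SE 0.21, limma adjusted p = 1.0). It was -0.19 without si-NC replicate 1, -0.18 without si-NC replicate 2, -0.51 without si-NC replicate 3 and -0.17 without si-CENPU replicate 3. PSMD1, the scaffold of the cap base, was the 1 of 49 genes whose groups did not overlap, against 6.95% of all tested genes. It was at 5.63, 4.6 and 3.77 TPM in controls and 3.58, 3.50 and 3.76 TPM after knockdown, and the lowest si-NC library was 0.01 TPM above the highest si-CENPU library (log2 -0.28, SE 0.22, limma adjusted p = 1.0). The PSMD1 difference was -0.16 without MHCC-97H si-NC replicate 1. PSMB10 (log2 -0.11) and PSMG3 (log2 -0.08) were the others with the smallest p. In Huh-7 PSMD1 was at 2.32, 4.57 and 3.50 TPM against 2.95, 2.22 and 4.12 TPM. For PSMB9 the log2 difference was 0.03 in Huh-7 (interval -0.15 to 0.22) and -0.02 in MHCC-97H (-0.20 to 0.16). For PSMB8 it was 0.15 (-0.17 to 0.47) and 0.015 (-0.30 to 0.33).

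By direction, 34 of 49 changes were above 0 in Huh-7 (52.3% of all tested genes) with a median of 0.05 (0.01 for all), and 8 of 49 in MHCC-97H (34.9% of all) with a median of -0.10 (-0.05 for all). Both moved when single libraries were left out. Without Huh-7 si-NC replicate 1 the Huh-7 median was -0.10 (-0.07 for all tested genes), with 17 of 49 above 0. Without Huh-7 si-CENPU replicate 3 it was -0.01 (-0.03 for all). In MHCC-97H, 22 of 49 were above 0 without si-NC replicate 1, 21 without si-CENPU replicate 3 and 2 without si-NC replicate 3, and 20 under trimmed-mean scaling. The MHCC-97H median of all tested genes moved too. It was -0.004 without si-NC replicate 1, -0.11 without si-NC replicate 3 and 0 under trimmed-mean scaling. The correlation of the MHCC-97H changes with GC was 0.35 over the 49 genes and 0.28 over all tested genes. After the GC correction 22 of 49 were above 0, with a median of -0.025 (0.0014 for all tested genes).

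**Figure D5:**
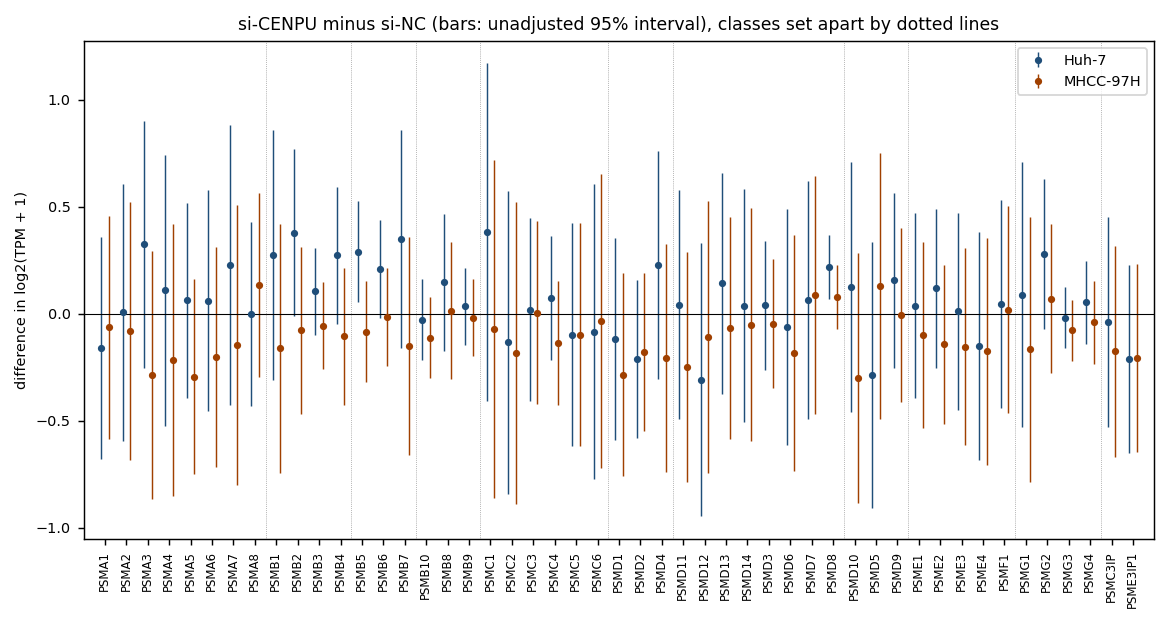
Change in log2(TPM + 1), si-CENPU minus si-NC (vertical axis), with unadjusted 95% intervals, for 49 genes ordered by class (horizontal axis) in Huh-7 (blue) and MHCC-97H (brown). Nearly all intervals cover 0, the exceptions being PSMB5 and PSMD8 in Huh-7, and PSMC1 has the interval reaching 1.17.

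By limma, 0 of 12 tested antigen presentation genes and 0 of 12 partners outside the symbol rule were called in either line. The count was also 0 of 7 for transcription regulators and 0 of 13 for ubiquitin and shuttle genes. Among all 11088 tested genes 1 was called per line (0.00902%). An unadjusted p below 0.05 was found for 1 of 13 ubiquitin and shuttle genes per line and for 0 in the other lists. Of all tested genes, 4.57% reached that level among the Huh-7 libraries and 3.42% among the MHCC-97H libraries.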

How the data were processed

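The authors deposited TPM per gene and library, made with HISAT2 and StringTie on GRCh38.p13, per the submitters' processing notes. The sources used here do not give versions, annotation release, strand setting or filters, and TPM keeps no depth. Of 60664 gene identifiers, 60447 were matched to a symbol. Coordinates, GC content and length are from GENCODE release 29 (GRCh38), promoters from RefSeq (GRCh38.p14). Where a gene shares reads with another, 31 of the 50 overlap an annotated gene.

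All tests used limma 3.58.1 in R 4.3.3 on log2(TPM + 1), for genes with a mean of at least 1 TPM, with 1 mean per group over 12 libraries and a moderated variance with trend, two-sided, Benjamini-Hochberg adjusted within each of 5 contrasts. The code was tested on simulated data. Genes with values for each library were the catalytic subunits, PSME1, PSME2, the 4 smallest p per knockdown contrast and the 8 smallest adjusted p between lines with si-NC; pathway genes were those with the 3 smallest p per list between lines and the 2 smallest per knockdown contrast. All others named (PSMD9, PSMD14, PSMC3, TAP1, NLRC5 between lines, B2M and the like) were chosen after their values were seen. Some genes this rule names are not reported here. Of the 8 leukocyte markers listed, 7 were found. Alternatives were 2 pseudocounts, 2 filters, 3 scalings, protein-coding genes alone, a GC correction, 4 model settings and leaving out each library. The genes and lists were chosen with earlier results of these data known.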

Additional observations from a re-analysis of the deposited data

How the results depend on the processing

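In all 25 alternatives (24 for the difference of responses, which the fit on the groups of 1 contrast does not give) 0 proteasome genes were called for si-CENPU. Between the lines 24 to 35 (si-NC) and 22 to 37 (si-CENPU) were called. Of all tested genes, 4405 to 11549 (si-NC) and 4282 to 10920 (si-CENPU) were called, with 5615 to 30267 tested depending on the filter. Of 597 gene values recomputed, 577 kept direction and side of the threshold, 12 gained and 3 lost the call, and 5 reversed: PSMD1 between the lines with si-NC was -0.0269 under trimmed-mean scaling, -0.0642 under quantile normalization and -0.36 after GC correction, and PSMG3 under trimmed-mean scaling was -0.10 between the lines with si-NC and 0.0001 for si-CENPU in MHCC-97H. The cause was not tested.

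Genes called for si-CENPU among all tested, 1 in each contrast, were in Huh-7 11 with a pseudocount of 0.1, 4 with no filter, 0 with a mean of at least 5 TPM, 2 under trimmed-mean scaling, 3 under quantile normalization, 3 after GC correction, 0 on the groups of the contrast alone and 0 to 4 leaving out 1 library. In MHCC-97H they were 0 with a pseudocount of 0.1, 7 with no filter, 4 under trimmed-mean scaling, 7 under quantile normalization, 2 rescaled without mitochondrial and the top 100 genes, 8 after GC correction, 0 on the contrast's groups alone, 0 with the replicate block, 0 with no variance trend and 0 to 4 leaving out 1 library. For the difference they were 0 with a pseudocount of 0.1 or 0.5, 6 with no filter, 0 with a mean of at least 5 TPM, 0 with the replicate block and 0 to 4 leaving out 1 library. Between the lines, with a mean of at least 5 TPM, 4405 (si-NC) and 4282 (si-CENPU) were called, since fewer genes were tested. Summed proteasome TPM in MHCC-97H, 83.7% of Huh-7 with si-NC, was 59.2% under trimmed-mean scaling and 81.4% to 87.6% leaving out 1 library.

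The replicate numbers are shared between groups, but same-numbered libraries deviated together with correlations of only -0.12 to 0.13, so they were not taken as pairs. With the number as a block, 27 of 49 proteasome genes were called between the lines with si-NC, against 7940 of all 11088 tested genes. With si-CENPU 31 of 49 were called, against 7566 of all 11088. For si-CENPU against si-NC 0 proteasome genes were called. TPM keeps no depth, so the precision of low genes such as PSMA8, PSMD12 and PSME4 is unknown.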
